A study of Mus musculus with 2 samples.

Results

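Heme biosynthesis enzymes build the iron-containing ring of hemoglobin, the cytochromes and catalase. The genes described here were chosen by symbol from the known route, in route order, as Alas1, Alas2, Alad, Uros, Urod, Cpox, Ppox and Fech. Of these 8 genes, 7 had a row among the 18877 gene rows of the table, and Alas2 was not analysed here.

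The transcriptome of primordial germ cells (PGCs), from which eggs and sperm arise, was sequenced in 2 replicates that form 1 group. The cells came from untreated C57BL6 embryos at embryonic day 9.5 (E9.5) and were enriched through SSEA1, a carbohydrate antigen on the PGC surface. The study's methods describe female embryos, pooled cells and full-length cDNA synthesis by Smart-seq2, whereas the labels name a NEBNext kit, so the library chemistry is uncertain. The series design calls the samples biological repetitions, without saying which embryos went into each.

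Heme synthesis starts in the mitochondrion, where 5-aminolevulinate synthase joins glycine and succinyl-CoA. This step limits the rate of the route and has a housekeeping enzyme, Alas1, and an erythroid enzyme, Alas2, which is encoded on the X chromosome. The middle of the route, with Alad, Uros and Urod, lies in the cytosol, and the final steps, by Cpox, Ppox and Fech, take place in the mitochondrion again.

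Values are TPM, in which the reads of a gene are divided by its length and brought to the same total for both libraries, so that levels of different genes can be set side by side. Whole reads behind the TPM values were recovered, with a choice among possible read numbers for Cpox and Fech. Replicate 1 held 15912466 reads, 2.92 times the 5458695 of replicate 2. Each TPM value is given with the 95% interval that its read number allows (exact Poisson), which covers counting error only. All 12 PGC markers examined were at or above 1 TPM in both replicates, as were 60% of all genes. Dppa3 was at 5013 and 5075 TPM and Nanos3 at 473 and 453 TPM, while Pou5f1 was at 1.54 and 1.46 TPM. The Y-linked genes Ddx3y (7.32 and 5.35 TPM) and Uty (1.47 and 1.13 TPM) had reads in both replicates, which goes against the description of the embryos as female.

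The start regions of 3 enzymes are shown, because they belong to the first step, to the enzyme with the highest level, and to the enzyme whose window held most of the searched letters. The sequences are RefSeq promoter windows on GRCm38.p6, from 250 bases before to 50 bases after a start site, read 5′ to 3′ along the gene. Capitals mark matches, on either strand, to the consensus motif of nuclear respiratory factor 1 (NRF1), or to GATA letters, which are AGATAA plus the variants TGATAA, plus AGATAG, plus TGATAG.
Alas1 (chr9:106247681-106247980, minus strand): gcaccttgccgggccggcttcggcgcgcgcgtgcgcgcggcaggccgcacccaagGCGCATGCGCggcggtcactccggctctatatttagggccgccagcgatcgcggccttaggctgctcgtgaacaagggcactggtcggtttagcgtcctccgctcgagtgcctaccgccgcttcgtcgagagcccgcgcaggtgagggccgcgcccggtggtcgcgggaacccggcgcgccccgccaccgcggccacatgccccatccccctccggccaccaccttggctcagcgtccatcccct
Alad (chr4:62519860-62520159, minus strand): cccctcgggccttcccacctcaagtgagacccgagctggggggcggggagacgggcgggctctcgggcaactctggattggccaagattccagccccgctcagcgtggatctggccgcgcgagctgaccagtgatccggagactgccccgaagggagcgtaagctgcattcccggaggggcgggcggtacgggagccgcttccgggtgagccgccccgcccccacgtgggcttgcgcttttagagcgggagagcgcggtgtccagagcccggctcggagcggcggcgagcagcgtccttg
Cpox (chr16:58669958-58670257, plus strand): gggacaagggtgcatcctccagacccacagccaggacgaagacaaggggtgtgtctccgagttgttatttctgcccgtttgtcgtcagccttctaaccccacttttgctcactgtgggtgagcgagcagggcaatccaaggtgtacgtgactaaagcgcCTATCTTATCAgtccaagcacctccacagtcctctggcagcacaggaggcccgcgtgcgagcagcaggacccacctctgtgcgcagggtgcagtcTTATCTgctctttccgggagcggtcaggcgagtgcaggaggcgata

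The Alas1 window held 1 match to the NRF1 motif, at position -195 from the start site, and 0.971% of all 32851 promoter windows held one. A second Alas1 start site, whose window is chr9:106247905-106248204, contains the same genomic match at position 30 after its start. The Cpox window held 3 GATA matches, all on the opposite strand, at positions -91, -86 and 5, of which the first pair overlap. GATA letters occurred in 29.8% of all windows. Of the 2 Uros windows, the one at chr7:133702451-133702750 held 2 GATA matches and the other held none. The 2 Alad windows, the Urod window and the Ppox window held no match to the GATA letters, to CCACACCC (3.56% of all windows), to TATAAA (13.6%) or to the NRF1 motif. These matches describe letters and were not tested as binding sites.

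Alad had by far the highest level of the 7 enzymes and Alas1 and Ppox the lowest, below 1 TPM in both replicates. Between them lay Urod, Uros, Fech and Cpox. The median of the 7 enzymes on the log2(TPM + 1) scale came to 2.80 for replicate 1 and 2.55 for replicate 2, a mean of 2.67 ± 0.175 (SD, n = 2), and the median of all genes was 1.89 and 1.85. Counting as detected a gene with 1 TPM or more in each replicate, 5 of 7 enzymes were detected, and 60% of all genes were. With 1 group of 2 libraries, no test between conditions was possible.

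**Figure D1:**
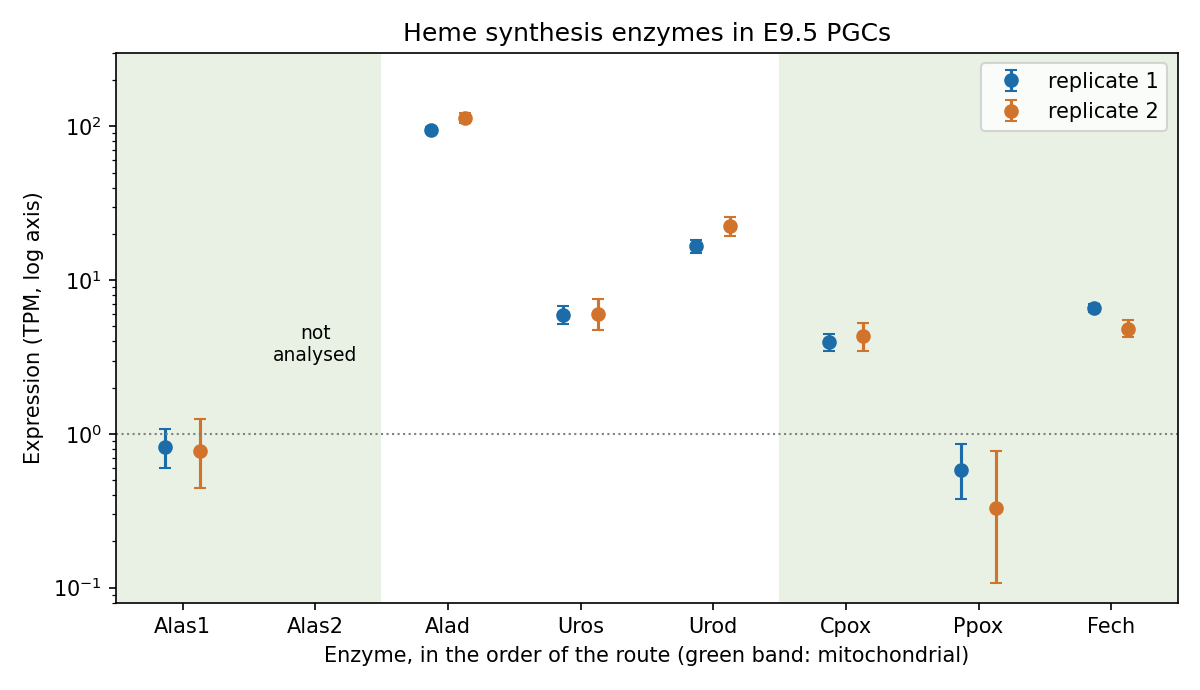
Level of each heme synthesis enzyme in E9.5 PGCs, in route order on the horizontal axis and in TPM on a log vertical axis. Points are the 2 replicates, bars are 95% counting intervals, green bands mark mitochondrial steps and the dotted line marks 1 TPM. Alad is highest at 94.6 and 114 TPM, and the points of Alas1 and Ppox lie below the line in both replicates.

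Alas1 (ENSMUSG00000032786.16, minus strand, chr9:106233455-106248654 on GRCm38), the housekeeping synthase of the first step, was at 0.818 TPM in replicate 1 (48 reads, interval 0.603 to 1.08) and 0.775 TPM in replicate 2 (16 reads, 0.443 to 1.26). Both intervals reach above 1 TPM, so a level of 1 TPM is within counting error. The mean was 0.797 ± 0.0302 TPM (SD, n = 2), and 28.8% and 29.7% of all genes had a lower value. The antisense gene 4930500F10Rik shares 465 exonic bases with Alas1, which is 7.53% of its exonic length, and reads from the shared stretch cannot be assigned with certainty because strand handling is not given in the sources used here.

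Alad (ENSMUSG00000028393.10, minus strand, chr4:62509169-62519918), the aminolevulinate dehydratase that joins 2 molecules of the first product, was at 94.6 TPM in replicate 1 (1682 reads, interval 90.1 to 99.2) and 114 TPM in replicate 2 (713 reads, 106 to 123). The replicate intervals did not overlap, replicate 2 being 1.21-fold higher (1.10 to 1.32). The mean was 104 ± 13.7 TPM (SD, n = 2), above 93.2% and 94.3% of all genes. Alad was 116-fold higher than Alas1 in replicate 1 (86.8 to 157) and 147-fold higher in replicate 2 (89.9 to 259), a difference of 5.87 ± 0.213 on the log2(TPM + 1) scale. It held 73.3% and 74.7% of the summed TPM of the 7 enzymes.

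Uros (ENSMUSG00000030979.13, minus strand, chr7:133686243-133710072) closes the ring as uroporphyrinogen III synthase. It was at 5.94 TPM in replicate 1 (202 reads, interval 5.15 to 6.82) and 6.02 TPM in replicate 2 (72 reads, 4.71 to 7.58), with a mean of 5.98 ± 0.0566 TPM (SD, n = 2). The replicates were nearly equal, with a ratio of 1.01 (0.763 to 1.33).

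Urod (ENSMUSG00000028684.14, minus strand, chr4:116989965-116994413), the uroporphyrinogen decarboxylase of the last cytosolic step, was at 16.6 TPM in replicate 1 (409 reads, interval 15 to 18.3) and 22.4 TPM in replicate 2 (194 reads, 19.4 to 25.8). Replicate 2 was higher by 1.35-fold (1.13 to 1.60), the same direction as Alad, and the intervals did not overlap. The mean was 19.5 ± 4.09 TPM (SD, n = 2).

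Cpox (ENSMUSG00000022742.6, plus strand, chr16:58670292-58717636), the coproporphyrinogen oxidase that starts the mitochondrial end of the route, was at 3.96 TPM in replicate 1 (240 reads, interval 3.48 to 4.50) and 4.32 TPM in replicate 2 (92 reads, 3.48 to 5.30). The intervals overlapped, and the mean was 4.14 ± 0.252 TPM (SD, n = 2). Urod was 4.19-fold and 5.19-fold higher. Stretches of the principal Cpox transcript, up to 228 bases long, match transcripts of 47 other genes at 90% identity or more. Of the Cpox exonic bases, 204 lie opposite Gpr15.

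Ppox (ENSMUSG00000062729.11, minus strand, chr1:171275990-171281186), the protoporphyrinogen oxidase, had the lowest mean level, 0.582 TPM in replicate 1 (25 reads, interval 0.377 to 0.860) and 0.331 TPM in replicate 2 (5 reads, 0.108 to 0.773). The intervals overlapped and both lie below 1 TPM. The mean was 0.457 ± 0.178 TPM (SD, n = 2), with 24.6% and 21.5% of all genes lower. Of its exonic bases, 791 (17.5%) are shared with B4galt3 on the opposite strand, so with so few reads the Ppox level is uncertain.

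Fech (ENSMUSG00000024588.9, minus strand, chromosome 18), the ferrochelatase that inserts iron into the finished ring, was at 6.60 TPM in replicate 1 (910 reads, interval 6.18 to 7.04) and 4.85 TPM in replicate 2 (235 reads, 4.25 to 5.51). Replicate 1 was higher and the intervals did not overlap, with replicate 2 at 0.734 times replicate 1 (0.633 to 0.848). The mean was 5.72 ± 1.24 TPM (SD, n = 2). Fech exceeded Ppox, the step before it, 11.3-fold and 14.6-fold. Parts of its principal transcript, up to 1138 bases, match transcripts of 225 other genes at 90% identity or more. The reads counted for Fech may therefore include some of theirs or lack some of its own.

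In descending order of mean TPM the 7 enzymes were Alad, Urod, Uros, Fech, Cpox, Alas1 and Ppox. Alad was above Urod by 5.70-fold (5.11 to 6.36) and 5.09-fold (4.34 to 6.0), and Urod above Uros by 2.79-fold and 3.72-fold, with counting intervals that exclude 1 in both replicates. Uros and Fech were not distinguished, since Uros was 0.900 times Fech in replicate 1 (0.769 to 1.05) and 1.24 times in replicate 2 (0.941 to 1.62). Fech exceeded Cpox beyond counting error only in replicate 1, by 1.67-fold (1.44 to 1.93), against 1.12-fold in replicate 2 (0.878 to 1.44). Cpox was 4.84-fold and 5.57-fold above Alas1, again beyond counting error in both. Alas1 and Ppox were not distinguished at this depth, with ratios of 1.40 (0.849 to 2.38) and 2.34 (0.819 to 8.17).

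Grouped by compartment, a division made after the values were seen, the 3 cytosolic enzymes (Alad, Uros and Urod) spanned 5.94 to 94.6 TPM in replicate 1 and 6.02 to 114 TPM in replicate 2. The 4 mitochondrial enzymes (Alas1, Cpox, Ppox and Fech) spanned 0.582 to 6.60 TPM and 0.331 to 4.85 TPM. The groups did not overlap in replicate 2, and in replicate 1 Fech was above Uros. The separation in replicate 2 lies within counting error, since Uros was 1.24 times Fech there (0.941 to 1.62). The cytosolic genes summed to 117 and 142 TPM and the mitochondrial genes to 12.0 and 10.3 TPM.

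No enzyme was over 2-fold apart between replicates on the log2(TPM + 1) scale, 0 of 7, while 10.2% of all genes were (4.31% higher and 5.89% lower in replicate 2). With 7 genes, a count of 0 cannot be told apart from that share. Alas1 and Ppox, below 1 TPM in replicate 1, could not be called over 2-fold lower on this scale even at 0 TPM. The TPM ratio of Ppox was 0.569 (0.170 to 1.51), an interval that includes a 2-fold difference. Alad, Uros, Urod and Cpox were higher in replicate 2, by 0.02 to 0.41, and Alas1, Ppox and Fech were lower, by 0.03 to 0.38, while 51.3% of all genes were lower. The TPM ratio departed from 1 beyond counting error for Alad, Urod and Fech. Among genes with a like number of reads, 28.6% were further apart than Alad, 27.1% further than Urod and 17.0% further than Fech. Such differences describe these libraries, which are of 1 group.

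**Figure D2:**
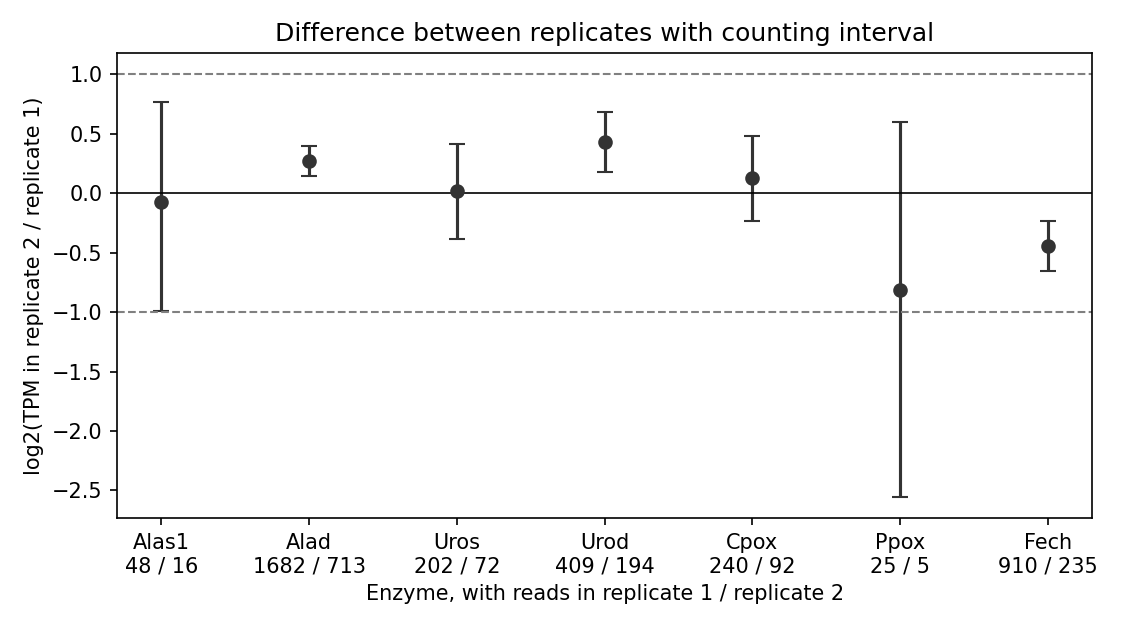
Log2 ratio of TPM in replicate 2 to replicate 1 for each enzyme with a row, with 95% counting intervals as bars and the reads of both replicates under each name. Dashed lines mark 2-fold. The intervals of Alad, Urod and Fech leave out 0, and those of Alas1 and Ppox, with 16 and 5 reads in replicate 2, are the widest.

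The deposited values divide reads by the summed length of all annotated exons of a gene, which exceeds the principal transcript 1.5-fold for Alad and 2.48-fold for Ppox. With the length of the principal transcript in its place, Alad was at 111 ± 14.4 TPM, Urod at 24.1 ± 5.01, Fech at 8.98 ± 1.96, Uros at 8.62 ± 0.0621 and Cpox at 6.05 ± 0.355 (mean ± SD, n = 2). Alas1 was then at 1.06 and 0.999 TPM (mean 1.03 ± 0.0413) and Ppox at 1.03 and 0.582 TPM (mean 0.805 ± 0.315), still the lowest of the 7 by mean, although each passed 1 TPM in replicate 1. The place of Fech and Uros in the order was exchanged, and the other places were kept.

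**Figure D3:**
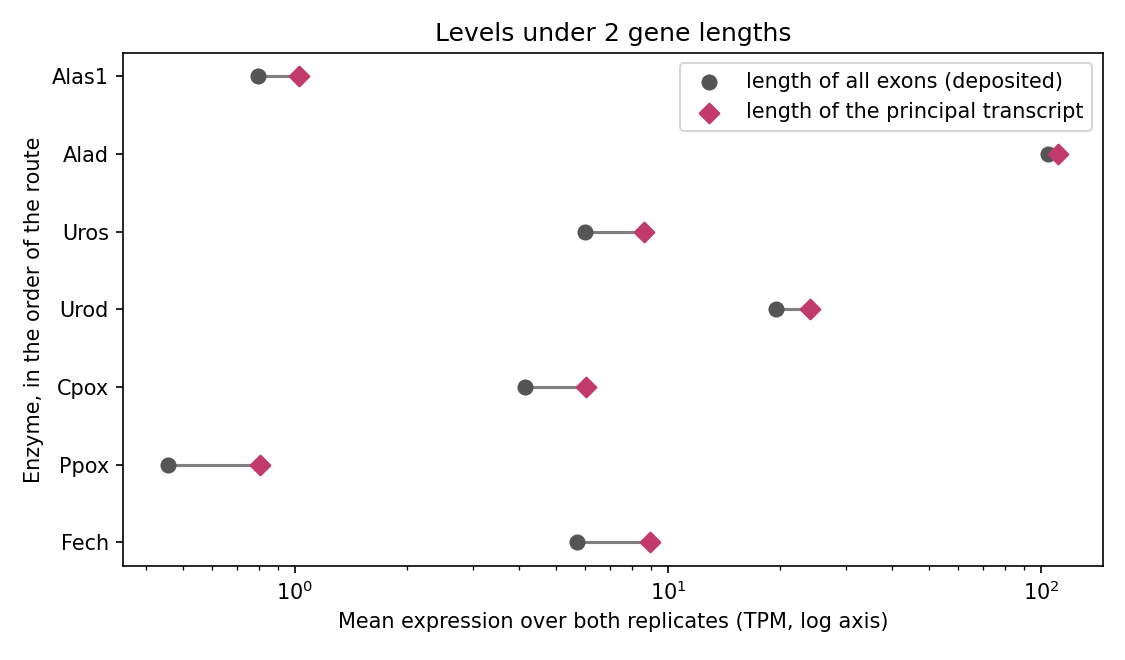
Mean TPM of both replicates for each enzyme in route order, on a log horizontal axis, under the summed exon length (circles) and the principal transcript length (diamonds). Every enzyme has a higher value under the principal transcript, from 1.07-fold for Alad to 1.76-fold for Ppox, and Alad remains highest and Ppox lowest.

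Genes that serve the route were counted by the same detection rule, which 60% of all genes met. Of 12 genes of mitochondrial transport and cofactors, 11 were at or above 1 TPM in both replicates, with a median of 3.39 ± 0.0293 on the log2(TPM + 1) scale. The highest were Lonp1, a mitochondrial protease, at 47.7 and 48.8 TPM, Slc25a39, a glutathione carrier, at 34.9 and 40.6 TPM, and Tmem14c, a membrane protein of porphyrin transport, at 38.1 and 33.7 TPM. The lowest were Abcb8 (2.06 and 0.947 TPM), Slc25a37, which imports iron into erythroid mitochondria (1.94 and 1.14 TPM), and Slc25a38, which imports glycine (1.76 and 1.42 TPM). These last genes had higher values than Alas1 in both replicates, but beyond counting intervals only in replicate 1. In replicate 2 the interval of Alas1 (0.443 to 1.26) overlapped those of Abcb8 (0.530 to 1.56), Slc25a37 (0.724 to 1.71) and Slc25a38 (0.754 to 2.42).

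For iron supply, the 7 genes of 9 listed that had a row were all detected, against 60% of all genes. Their median was 4.39 ± 0.0493. The ferritin chains Ftl1 (626 and 540 TPM) and Fth1 (435 and 417 TPM) were the highest, the transferrin receptor Tfrc was at 19.4 and 21.3 TPM, and the iron regulatory proteins Ireb2 and Aco1 were at 24.2 and 20.4 TPM and 6.06 and 6.52 TPM. The divalent metal importer Slc11a2 was at 3.44 and 2.45 TPM and the exporter Slc40a1 at 2.0 and 1.30 TPM. All 7 iron-sulfur cluster genes examined were detected, with a median of 5.11 ± 0.469. Among them Hscb, a cochaperone, was the highest at 185 and 184 TPM and Isca1 the lowest at 3.92 and 2.66 TPM, with Isca2 (53.2 and 36.1), Lyrm4 (47.7 and 26.5), Iscu (42.6 and 29.0), Glrx5 (36.4 and 24.4) and Nfs1 (17.4 and 17.6 TPM) between.

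Among proteins that use heme, or attach or modify it, 11 of 12 genes were detected, against 60% of all genes. Their median was 4.01 ± 0.00948. Cytochrome c, encoded by Cycs, was at 1462 and 1488 TPM, Cyb5a at 337 and 347 TPM and Sdhd at 78.9 and 65.4 TPM. At the low end were Cox10 (4.92 and 7.49 TPM), Por (2.28 and 2.08 TPM) and Cox15 (0.386 and 0.670 TPM). Cox10 and Cox15 make the heme a of cytochrome oxidase.

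For heme breakdown and movement, 6 of 9 genes were detected, close to the 60% share of all genes, with a median of 2.02 ± 0.254. The constitutive heme oxygenase Hmox2 was the highest at 49.8 and 39.3 TPM, and the inducible Hmox1 was at 4.39 and 1.37 TPM, the only gene of the list over 2-fold apart between replicates on the log2(TPM + 1) scale. The heme exporter Flvcr1 was at 9.98 and 7.45 TPM, Flvcr2 at 0.991 and 1.20 TPM, the biliverdin reductases Blvra and Blvrb at 4.04 and 2.93 TPM and 3.33 and 2.58 TPM. The repressor Bach1 was at 3.59 and 5.37 TPM. Fbxo7, at 0.153 and 0.920 TPM (9 and 19 reads), and the heme transporter Slc48a1, at 0.306 and 0.109 TPM (8 and 1 reads), were over 2-fold apart in TPM alone.

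Of 9 genes listed together for a broad link to the control of the first step, 6 were measured, with a median of 3.12 ± 0.191. Not every gene of the list, such as Tfam, is a direct regulator of Alas1 or Alas2, and action on them was not tested. Of the 6, 4 were detected, close to the 60% share of all genes. Nrf1, whose letters occur in the Alas1 window, was at 4.29 and 3.29 TPM, Tfam at 41.7 and 40.8 TPM, Hif1a at 33.8 and 29.7 TPM and the heme-regulated kinase Eif2ak1 at 16.2 and 13.6 TPM. The erythroid factors Klf1 and Zfpm1 were at 0.275 and 1.56 TPM (4 and 8 reads) and at 0.150 and 0 TPM (5 and 0 reads). Klf1 was over 2-fold apart between replicates on the log2(TPM + 1) scale, on these few reads. Gata1, Ppargc1a and Ppargc1b were not analysed here.

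**Figure D4:**
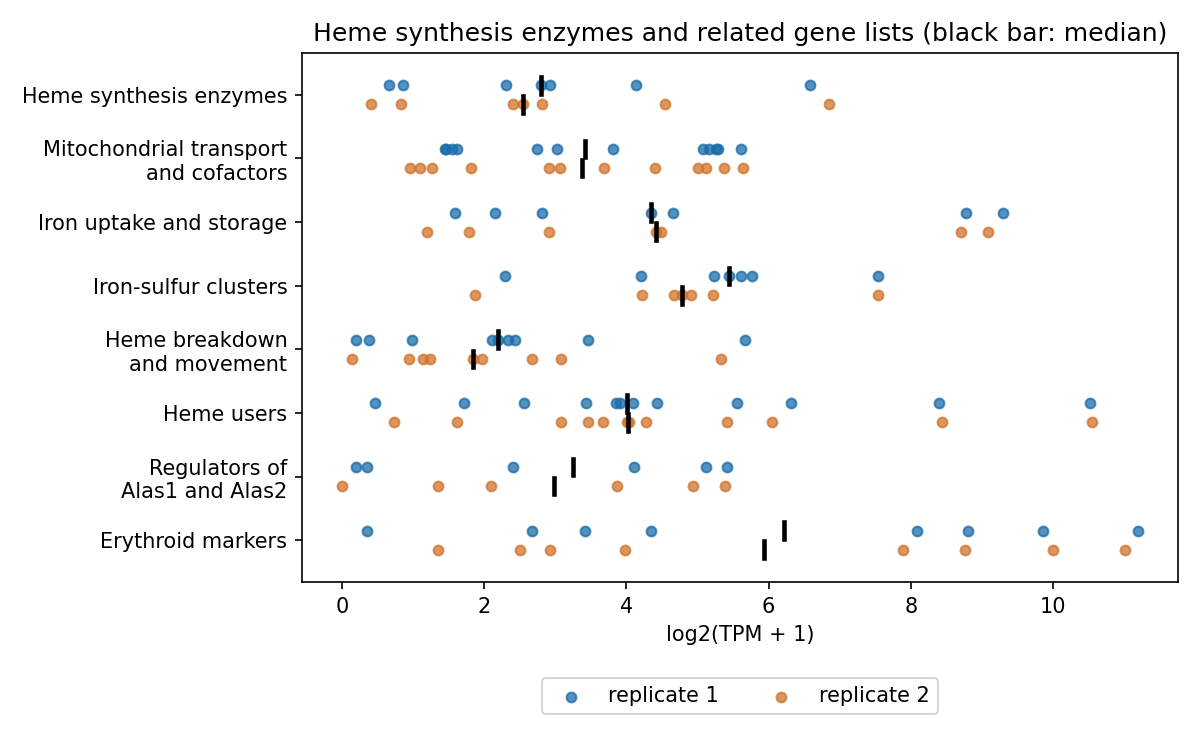
Level of each gene, as log2(TPM + 1) on the horizontal axis, for the heme synthesis enzymes and related gene lists. Points are genes in replicate 1 and replicate 2, and black bars are the median of each list in each replicate. The enzymes have medians of 2.80 and 2.55, below every other plotted list except heme breakdown and movement, whose medians are lower.

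Globin RNA was present beside the enzymes. Of 17 erythroid markers examined, 8 had a row. The 7 at or above 1 TPM in both replicates, where 60% of all genes were, are all globins. The other, Klf1, was at 0.275 and 1.56 TPM. The levels of the 8 summed to 4009 and 3788 TPM in replicates 1 and 2. The embryonic globins Hba-x (2331 and 2065 TPM) and Hbb-y (927 and 1025 TPM) made most of it, and no measured marker was at 0 in either replicate. Macrophage markers summed to 23.9 and 12.1 TPM over 5 genes, with C1qb listed at 0 in replicate 2. Of 5 megakaryocyte markers examined, 2 had a row, Pf4 at 84.9 and 83.0 TPM and Gp1bb at only 1.34 and 1.43 TPM. Endothelial markers summed to 12.9 and 11.0 TPM over 5 genes. Of the endothelial sum, Pecam1 gave 8.23 and 9.99 TPM, and the other 4 genes were each lower in replicate 2, with Emcn listed at 0 there. The part of other cells in the enzyme levels was not tested, and in bulk samples fewer cells of a type and less RNA per cell cannot be told apart.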

How the data were processed

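RNA-seq reads of both E9.5 PGC samples were mapped by the authors to mm10 with HISAT2 and counted per gene with featureCounts, and they deposited 1 table of TPM values per gene. The submitters' processing notes also name Bowtie2, RSEM, R 3.4.2 and DESeq2. Other versions, the gene annotation, the use of strand and the handling of multiply mapped reads are not given in the sources used here. TPM is relative, so abundant genes lower the values of the others. Of 18877 rows, 17 have symbols turned into dates.

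Symbols were matched to GENCODE M21 on GRCm38 (18748 matched). TPM times summed exon length was a whole multiple of 1 amount per library, taken as 1 read: 96.7% and 95.8% of values under 50 reads were whole within 0.02. For Cpox and Fech the annotated lengths did not give whole reads, and the values fix only the ratio of reads between replicates. Of the whole-read pairs with that ratio, the one nearest to the annotated length was used. It implies lengths 4.34% shorter and 4.82% longer than annotated. The read numbers and intervals of Cpox and Fech rest on this choice. Levels were compared as log2(TPM + 1), on which differences of low genes are understated. Intervals are exact at 95% (Poisson for a level, Clopper-Pearson for a ratio) and cover counting error only, since reads are not independent molecules. No p-value was computed.

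The members and gene lists were chosen with earlier results of these data known. The naming rule took all listed enzymes, every measured gene of a related list of up to 9, the 3 highest and 3 lowest of a longer list, the markers that check the label, and the 3 protein-coding genes nearest to Alas1. Some genes under this rule are not reported here, and the list counts leave them out. The planned comparison of Alas2 with Alas1 was not computed, because Alas2 was not analysed here, and Alad with Alas1 was compared in its place, chosen after seeing the data. Alternatives were other pseudocounts, thresholds, scalings and each replicate left out. The alternatives for gene length, other than those planned for Alas2, were chosen after seeing the data. Gene copies were searched with BLAST 2.17.0 among annotated transcripts (90% identity over 150 bases). The search used the principal transcript of each enzyme, 6571 of 13838 exonic bases for Fech and 3097 of 6661 for Cpox, and other exons were not searched. In a simulation of 18748 genes, the read numbers put in came back for 100% of genes in replicate 1 and in replicate 2. Of genes changed 4-fold, 200 of 200 were called over 2-fold apart, as were 2.24% of unchanged genes. In the real libraries 10.2% of all genes were that far apart, so the simulation does not stand for their full spread. Calling of a 4-fold change was not tested at the levels of Uros, Fech, Cpox, Alas1 and Ppox. Genes with few reads, such as Alas1 and Ppox, were not tested separately. Python 3.11.15, numpy 2.4.6, pandas 2.3.3, scipy 1.17.1 and matplotlib 3.10.9 were used.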

Additional observations from a re-analysis of the deposited data

How the results depend on the processing

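The median level of the enzymes, 2.67 on the log2(TPM + 1) scale, was 2.45 with a pseudocount of 0.1, 2.86 with TPM rescaled over genes of at least 200 exonic bases and 3.18 with principal transcript lengths, and 2.55 to 2.80 with each replicate left out. Alad minus Alas1, 5.87, was 6.86 with a pseudocount of 0.1, 7.03 with none, 5.30 on reads without length and 5.38 with the longest transcript, and 5.72 to 6.02 with each replicate left out. The number of detected enzymes, 5, became 6 at 0.5 TPM, 3 at 5 TPM and 2 at 10 TPM, where 68.7%, 35.5% and 25.3% of all genes were detected. On reads without length, 3 of 7 enzymes kept their place in the order, and 5 to 7 did with each replicate left out. Of 14 alternative values for single enzymes between replicates, 0 changed sign. A pseudocount cannot turn a sign, and the rescaling was small (median log2 ratio -0.0412), so this count says little about direction. The Ppox difference went from -0.25 to -0.66 with a pseudocount of 0.1. The number of enzymes over 2-fold apart was 0 under every alternative run for it. These include a threshold of 1.5-fold and a pseudocount of 0.1, each changed alone, under which 22.7% and 23.7% of all genes were apart. A threshold of 1.5-fold was not run with a pseudocount of 0.1, under which Ppox, at -0.66, would pass it, so the count of 0 depends on the pseudocount. No alternative without Alas2 gave a value, as it was not analysed here. No paired analysis was possible because both libraries belong to 1 group. Depth limits Alas1 and Ppox, with 16 and 5 reads in replicate 2.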

Other observations

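The 3 protein-coding genes whose level was nearest to that of Alas1, by Euclidean distance in log2(TPM + 1) over both libraries, were Gm42417 (0.814 and 0.771 TPM, distance 0.00457), Msh5 (0.819 and 0.758 TPM, distance 0.0142) and Macf1 (0.797 and 0.772 TPM, distance 0.0167). With 2 libraries, such likeness describes a shared level only.

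The loop letters CAGTGN of the iron-responsive element, a hairpin through which iron regulatory proteins act on translation, were searched on the sense strand of annotated 5′ untranslated regions. They occurred in 24.1% of all 55678 such regions (median length 161 bases) and in 11 of 28 (39.3%, median length 137 bases) of the measured enzymes, where transcripts of 1 gene share sequence, with 3 of 6 for Alas1, 5 of 8 for Uros, 1 of 1 for Cpox, 2 of 8 for Fech and none for Alad, Urod or Ppox. Both annotated regions of Alas2 held them. The search read letters and no hairpin, so a match is a description.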
